A study of Rattus norvegicus with 16 samples.

Results

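The AMPA receptor subunit genes Gria1 to Gria4 and the kainate receptor subunit genes Grik1 to Grik5 were followed in cultured rat hippocampal neurons exposed to hydroxyurea. These are 9 of the 15715 genes named on the array, and 13 of its 30367 probes. All probes whose transcript record belongs to one of these genes were taken. Gria2, Gria3, Gria4 and Grik1 had 2 probes each and the other genes 1. A gene with 2 probes is represented by its brighter probe, averaged over the 15 samples, and the other probe is given beside it.

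The cultures came from the hippocampus of Sprague-Dawley rat embryos at day 18 and were grown in Neurobasal medium with B27. The 5 groups were cultures left untreated and cultures given 5 µM hydroxyurea for 2, 6, 12 or 24 h, with 3 samples each and 15 samples in all. Hydroxyurea inhibits ribonucleotide reductase, the enzyme that makes deoxynucleotides. Per the labels, the medium was replaced by one whose B27 lacked antioxidants before the drug was added, and how long the untreated cultures spent in that medium is not stated there. The labels also do not say that replicates were separate cultures, so p-values here reflect only sample-to-sample spread, part or all of which may be technical. RNA was measured on 1-colour Agilent arrays, 1 for each sample except untreated replicate 1, which had 2 that were averaged. A level is the log2 processed signal after subtraction of the 75th percentile of the same array, so a level of 0 lies at that percentile, and levels of different probes cannot be set against each other.

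AMPA receptors carry most of the fast excitatory current between hippocampal neurons, and their subunits assemble in mixed groups around a cation pore. Gria2 encodes the subunit that, after RNA editing of its pore, keeps calcium from passing, so the ratio of this subunit to the others sets the calcium entry of the receptor. Kainate receptors modulate transmitter release and neuronal excitability; Grik1, Grik2 and Grik3 encode subunits that can form channels alone, while the high-affinity subunits encoded by Grik4 and Grik5 need one of those as a partner.

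The share of probes well above background ran from 64.6% to 70.4% over the 16 arrays, with 0 saturated spots. The first principal component, which held 29.4% of the variance, set 12 h replicate 3 apart. Spots of the same probe differed by a median SD of 0.248 on the log2 scale on that array and of 0.113 on the first array of untreated replicate 1, against 0.0445 to 0.0876 on the other arrays. The differences of the 9 genes without 12 h replicate 3 or without untreated replicate 1 are given after the single genes.

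No subunit gene passed the test at any time. All 13 probes were well above background in 15 of 15 samples, and 0 of 13 passed an adjusted p of 0.05 (limma, Benjamini-Hochberg over 20349 probes) at 2, 6, 12 or 24 h against untreated, in the mean of the 4 times against untreated, in 24 h against 2 h, or in the moderated F test among the 5 groups. The background was the same in each of these 7 comparisons, with 0% of all probes called. The number of all probes with an unadjusted p below 0.05 was 249 at 2 h, 156 at 6 h, 489 at 12 h, 178 at 24 h, 337 for the mean of the 4 times, 165 for 24 h against 2 h and 189 in the F test, and no subunit probe was among them. The smallest unadjusted p among the 13 probes was 0.089, for the other probe of Gria3 at 6 h. A p that misses the threshold does not show equal levels, and the intervals below give the sizes that these samples leave possible.

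Nor did treated and untreated samples separate for most members. At 2 h, the 3 treated values overlapped the 3 untreated values for all 13 probes, whereas 6.27% of all probes had groups that did not overlap. At 6 h, 1 of 13 probes had groups that did not overlap, against 3.87% of all probes. At 12 h it was 0 of 13 against 5.15%, and at 24 h 0 of 13 against 3.03%. With the 12 treated samples pooled, 0 of 13 probes separated from the untreated samples, against 0.0639% of all probes.

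Gria1, which encodes a subunit added to synapses in long-term potentiation, had levels of -3.17, -2.93 and -2.76 in the untreated samples and of -3.09, -3.31 and -2.76 at 2 h. The levels were -3.08, -3.10 and -3.08 at 6 h, then -2.98, -2.93 and -2.91 at 12 h, and -3.09, -3.05 and -3.21 at 24 h. All 6 h and all 24 h samples lay below the untreated mean, and of these only 24 h replicate 3 lay below the lowest untreated sample. The difference at 24 h was -0.16 (SE 0.14, 95% interval -0.46 to 0.14, unadjusted p = 0.265, adjusted p = 1.00, limma). On the array of 12 h replicate 3, the 10 spots of this probe had an SD of 0.765, against a median of 0.0748 over 16 arrays.

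Gria2 had levels of 0.25, 0.08 and -0.16 in the untreated samples. At 2 h the levels were 0.20, -0.22 and -0.63, and at 6 h 0.17, 0.11 and -0.15. At 12 h they were 0.16, 0.21 and 0.25, and at 24 h -0.13, -0.22 and -0.05. The samples of 12 h were all above the untreated mean and those of 24 h all below it, and both groups overlapped the untreated samples. The difference was -0.27 at 2 h (SE 0.18, 95% interval -0.65 to 0.11, unadjusted p = 0.15), 0.15 at 12 h (interval -0.23 to 0.52) and -0.19 at 24 h (interval -0.57 to 0.19). Replicate 3 of 2 h was the lowest of all 15 samples, and without it the difference at 2 h was -0.066. The other probe of Gria2 gave -0.11, 0.038 and -0.22 at these times, the same signs, and its lowest sample was 24 h replicate 2 at -4.68.

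**Figure D1:**
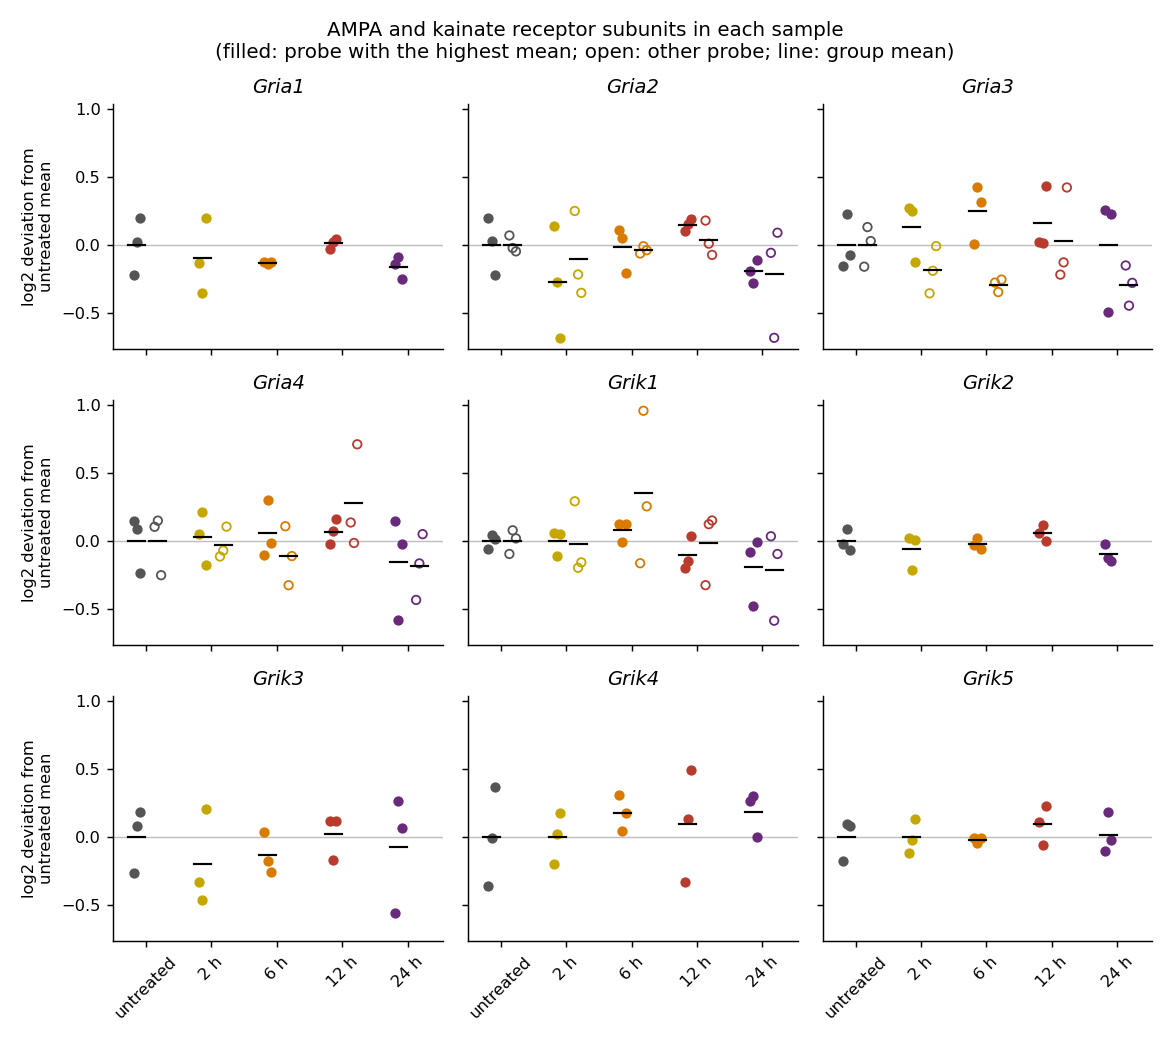
Levels of the 9 subunit genes in the 15 samples, as log2 deviation from the untreated mean of the same probe (y axis) by group (x axis); points are samples, lines group means, filled points the probe with the highest mean and open points the other probe. In each panel the filled points of the treated groups overlap the untreated ones.

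Gria3 is the member whose value moved most between the 2 arrays of untreated replicate 1. Its levels were -0.71, -0.33 and -0.64 in the untreated samples, -0.29, -0.31 and -0.69 at 2 h and -0.55, -0.14 and -0.25 at 6 h. At 12 h they were -0.54, -0.55 and -0.13, and at 24 h -0.31, -1.05 and -0.33. The mean of the 4 times was 0.13 above untreated (SE 0.16, 95% interval -0.22 to 0.49, unadjusted p = 0.43). On the first array of untreated replicate 1 the 2 spots of this probe read -1.93 and -0.32, while the repeat array of the same sample read -0.30. With the repeat array alone for that sample, the mean of the 4 times was -0.0034 from untreated.

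The other probe of Gria3 had levels of -3.59, -3.30 and -3.40 in the untreated samples and of -3.71, -3.78 and -3.69 at 6 h. These were the groups that did not overlap, with a difference of -0.29 (SE 0.16, 95% interval -0.64 to 0.051, unadjusted p = 0.089, adjusted p = 1.00, limma). At 24 h the levels were -3.58, -3.88 and -3.71, a difference of -0.29 (interval -0.64 to 0.052). The 2 probes of Gria3 thus had opposite signs at 6 h, where the brighter one gave 0.25 (interval -0.20 to 0.69), and at 2 h, where they gave 0.13 and -0.18. The probes are assigned to different transcript records of the gene.

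Gria4, whose product is known from fast-firing interneurons and from early hippocampal circuits, had levels of -0.27, -0.33 and -0.65 in the untreated samples. The levels were -0.37, -0.21 and -0.60 at 2 h, -0.52, -0.11 and -0.43 at 6 h, and -0.44, -0.35 and -0.26 at 12 h. At 24 h they were -0.27, -0.996 and -0.44, a difference of -0.15 (SE 0.18, 95% interval -0.55 to 0.24), which was 0.061 without replicate 2. The sample with the highest level was 6 h replicate 2 and the lowest was 24 h replicate 2. The other probe ran from -2.31, in 24 h replicate 1, to -1.17, in 12 h replicate 3, a range of 1.14. Its differences were -0.027 at 2 h, -0.11 at 6 h, 0.28 at 12 h and -0.18 at 24 h. The brighter probe gave 0.027 at 2 h, 0.061 at 6 h and 0.068 at 12 h, so the signs were opposite at 2 and 6 h.

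Because Gria2 sets the calcium entry of AMPA receptors, its deviation from the untreated mean was set against that of the other subunits within each sample. Relative to Gria1, the Gria2 deviation was 0.41, 0.0041 and -0.42 in the untreated samples and 0.28, 0.082 and -0.88 at 2 h. At 12 h it lay between 0.13 and 0.14 in all 3 samples, inside the untreated range. Relative to Gria3 it was -0.13, -0.52 and -0.56 at 2 h, a mean of -0.40 ± 0.24 (SD, n = 3), against -0.20 to 0.35 in the untreated samples, which include the uncertain Gria3 reading of replicate 1. Relative to Gria4 it was 0.091, -0.48 and -0.50 at 2 h, against -0.060 to 0.046 in the untreated samples. At 2 h, the 3 values relative to Gria4 lay outside the untreated range, 1 above it and 2 below it. Of those relative to Gria3, 1 lay inside the range and 2 below it. This was not particular to 2 h. Relative to Gria4 the values were 0.21, -0.25 and -0.19 at 6 h, and -0.34, 0.30 and -0.086 at 24 h. Relative to Gria3 they were 0.10, -0.37 and -0.52 at 6 h, and -0.45, 0.21 and -0.34 at 24 h. At 12 h they ran from 0.032 to 0.12 relative to Gria4 and from -0.24 to 0.13 relative to Gria3. The values were not tested.

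Grik1, found mainly in interneurons of the hippocampus, had levels of -3.70, -3.59 and -3.62 in the untreated samples. The levels were -3.58, -3.74 and -3.59 at 2 h, -3.51, -3.64 and -3.51 at 6 h, -3.84, -3.78 and -3.60 at 12 h and -3.71, -4.11 and -3.64 at 24 h. All 3 samples of 24 h lay below the untreated mean, with a difference of -0.19 (SE 0.13, 95% interval -0.46 to 0.081, unadjusted p = 0.154, adjusted p = 1.00, limma), and of -0.046 without replicate 2. The other Grik1 probe gave -0.22 at 24 h and 0.35 at 6 h (interval -0.19 to 0.89). This was the largest difference among the 13 probes. In 6 h replicate 2 the probe read -2.97, where the other samples of the group read -4.09 and -3.67, and without that sample the difference was 0.045. Each Grik1 probe had a single spot per array, so no spread between spots is known for it.

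Grik2, the subunit of the kainate receptors of hippocampal principal cells, had the smallest residual SD of the 9 genes. Its levels were -1.72, -1.61 and -1.77 in the untreated samples, -1.68, -1.91 and -1.69 at 2 h and -1.73, -1.68 and -1.76 at 6 h. They were -1.64, -1.58 and -1.70 at 12 h and -1.72, -1.83 and -1.85 at 24 h. The whole range over 15 samples was 0.33, or 1.26-fold, and 1.94% of probes had a smaller residual SD than the 0.081 of Grik2. The largest of its 4 differences from untreated was -0.099 at 24 h, with an interval from -0.31 to 0.11.

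Grik3 had levels of -5.26, -4.91 and -4.81 in the untreated samples. This gene encodes a kainate subunit that can also act from the presynaptic side. The levels were -5.32, -5.46 and -4.79 at 2 h, -4.96, -5.18 and -5.26 at 6 h, -4.88, -5.17 and -4.88 at 12 h and -5.55, -4.73 and -4.93 at 24 h. The 24 h group held both the highest and the lowest of the 15 samples. The difference at 2 h was -0.20 (SE 0.22, 95% interval -0.66 to 0.27).

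Grik4, which encodes a high-affinity subunit enriched in the CA3 field, had levels of -4.52, -4.17 and -3.79 in the untreated samples. They were -4.35, -4.13 and -3.98 at 2 h, -3.85, -4.11 and -3.98 at 6 h, -4.49, -4.02 and -3.67 at 12 h and -3.90, -3.86 and -4.16 at 24 h. It was the member with the highest difference at 24 h, 0.19 (SE 0.21, 95% interval -0.26 to 0.64, unadjusted p = 0.39), and the untreated samples themselves spread over 0.36 (SD, n = 3).

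Grik5, the other high-affinity subunit, had levels of 3.10, 3.38 and 3.36 in the untreated samples and of 3.16, 3.26 and 3.41 at 2 h. They were 3.27, 3.24 and 3.27 at 6 h, 3.39, 3.22 and 3.51 at 12 h and 3.18, 3.46 and 3.26 at 24 h. The samples spanned 0.41 in all, and the differences from untreated were between -0.022 and 0.091. The interval at 24 h ran from -0.24 to 0.28.

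**Figure D2:**
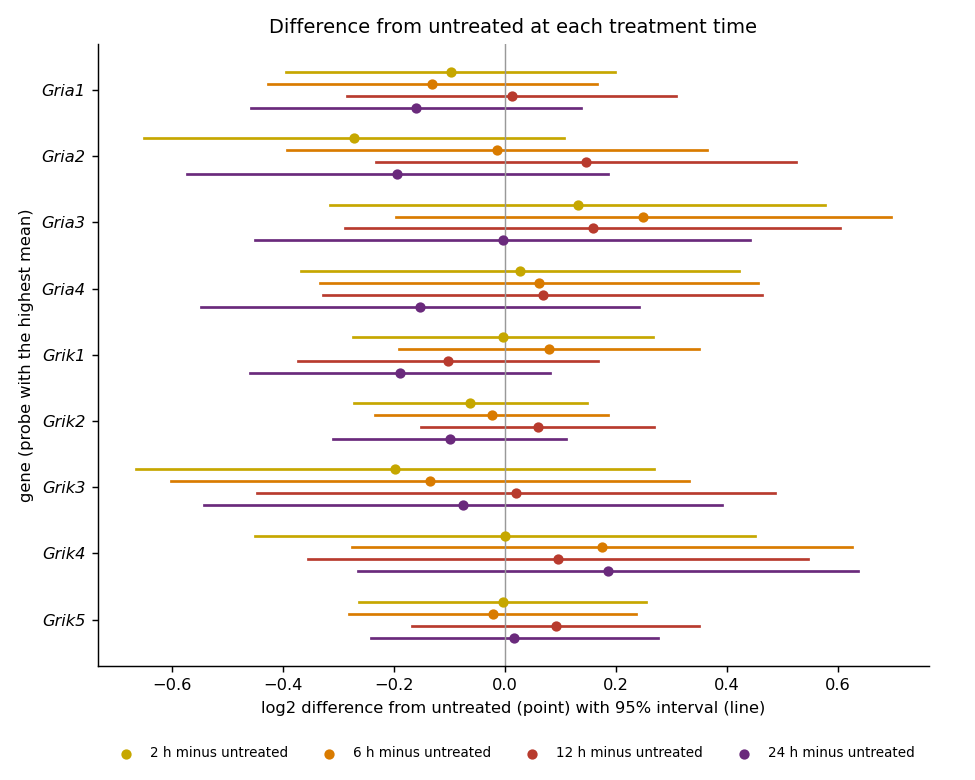
Log2 difference from untreated (x axis; points) with 95% interval (lines) for the probe with the highest mean of each of the 9 genes (y axis) at 2, 6, 12 and 24 h, from 1 limma fit over 15 samples. Every interval includes 0, and they reach from -0.66 to 0.69.

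The 54 differences of the 9 genes (6 comparisons each) lay between -0.27 and 0.25, with 25 above and 29 below 0. None of the 54 intervals left out 0, and all of them lay within 1 log2 unit of 0. As folds, the bounds ran from 0.631 to 1.62. With the 5 group means of each gene ranked, all 36 gaps between neighbouring means were smaller than the residual SD of their probe, and all 36 neighbouring groups overlapped. Over all 13 probes it was 50 of 52 gaps and 52 of 52 overlaps. Neighbours in a ranking lie close by construction, and the share over all probes of the array was not computed. These counts therefore describe the values and do not show that the groups were alike.

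Without 12 h replicate 3, the difference at 12 h was 0.020 instead of 0.16 for Gria3, -0.10 instead of 0.096 for Grik4, 0.024 instead of 0.091 for Grik5 and -0.17 instead of -0.10 for Grik1. It was -0.0039 for Gria1, 0.13 for Gria2, 0.023 for Gria4, 0.090 for Grik2 and -0.026 for Grik3. Without untreated replicate 1, the mean of the 4 times was -0.20 for Gria1, 0.014 for Gria2, 0.058 for Gria3 and 0.076 for Gria4. For the kainate genes it was then -0.085 for Grik1, -0.042 for Grik2, -0.23 for Grik3, -0.065 for Grik4 and -0.069 for Grik5, so that Gria2, Grik4 and Grik5 had the other sign. At 24 h, the difference without that sample was -0.27 for Gria1, -0.096 for Gria2 and 0.0064 for Grik4. No difference passed the test in either case.

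At 24 h, 7 of 9 genes had a mean below untreated, with a median of -0.10, while the median of all probes was 0.012. Without 24 h replicate 2, it was 6 of 9, with a median of -0.065, and without untreated replicate 1 it was 8 of 9, with a median of -0.096. Within slide 1, where 24 h was replicate 3 alone, it was 5 of 9, with a median of -0.028. Within slide 2, where 24 h was replicates 1 and 2, it was 7 of 9, with a median of -0.073 against 0.020 for all probes. With quantile normalization it was 8 of 9, with a median of -0.12 against -0.013 for all probes. With another background correction (normexp) it was 6 of 9, with a median of -0.022 where that of all probes was 0.055. At 12 h, 8 of 9 had a mean above untreated, with a median of 0.068 against 0.022 for all probes. That count fell to 5 of 9 without 12 h replicate 3, to 5 of 9 without untreated replicate 1 and to 3 of 9 with array weights. Within slide 1, where 12 h was replicate 1 alone, it was also 5 of 9. Within slide 2, where 12 h was replicates 2 and 3, it was 8 of 9, with a median of 0.11 against 0.037 for all probes. With quantile normalization it was 7 of 9. With normexp it was 9 of 9 with a median of 0.12, where the median of all probes moved to 0.11. For the mean of the 4 times, 5 of 9 were lower, with a median of -0.032. The comparisons share the same 3 untreated samples, so the counts are not separate evidence.

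Some samples deviated in several subunit genes at once. The sample of 12 h replicate 3 was above the mean of the same probe for 9 of 9 genes, with a median deviation of 0.19. In 24 h replicate 2 the AMPA genes had a median deviation of -0.40 and the kainate genes one of 0.16, and Gria3, Gria4 and Grik1 had their lowest level there. In untreated replicate 1 the kainate genes had a median deviation of -0.19 and the AMPA genes one of 0.0025.

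**Figure D3:**
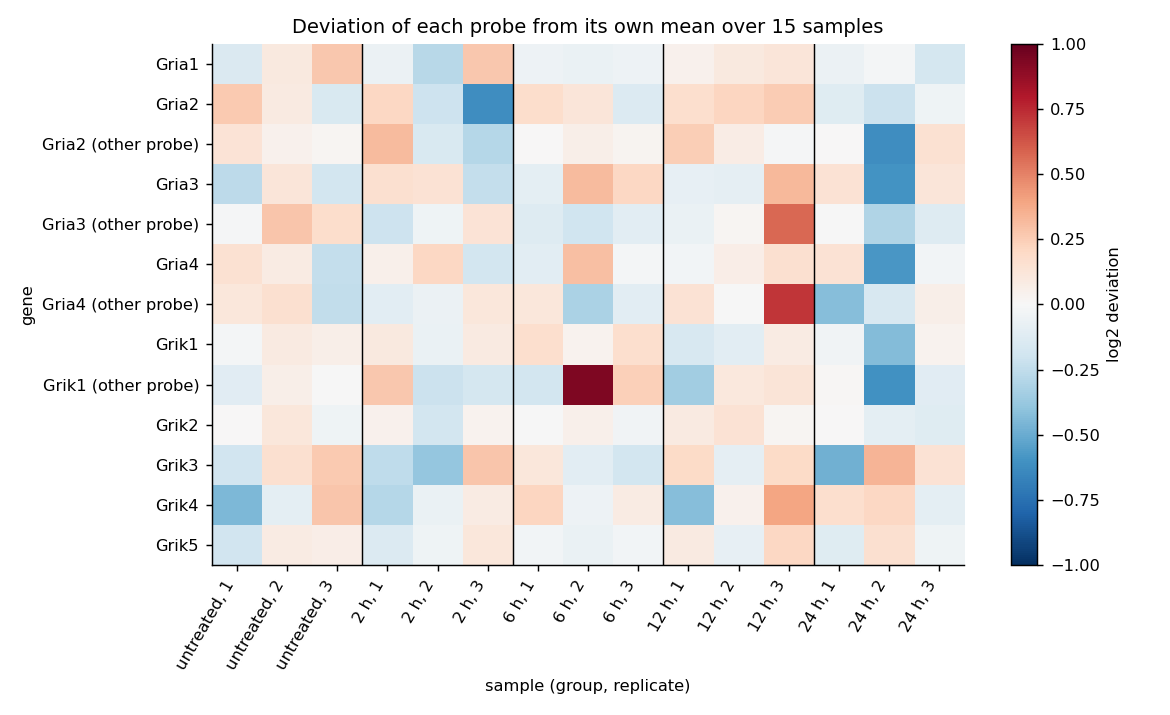
Deviation of the 13 probes (rows) from their own mean in the 15 samples (columns; vertical lines separate the groups), colour giving log2 deviation. The columns of 12 h replicate 3 and 24 h replicate 2 differ from the others of their group, as does the other Grik1 probe in 6 h replicate 2, at -2.97 against -4.09 and -3.67.

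The 2 arrays of untreated replicate 1 measure how far a value moves with no change of sample. For the 13 probes, the repeat array differed from the first by a median of 0.091 in size, and the median over 20332 probes was 0.11. The repeat difference was 0.82 for Gria3 and between -0.19 and 0.11 for the other 12 probes. Of the differences from untreated given above, those of Grik2 and Grik5 were no larger than the size by which a probe typically moved between these arrays. The 2 sizes are not alike, since the differences are between means of 3 samples and the repeat compares single arrays. The first array also lay on slide 1 and the repeat on slide 2.

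**Figure D4:**
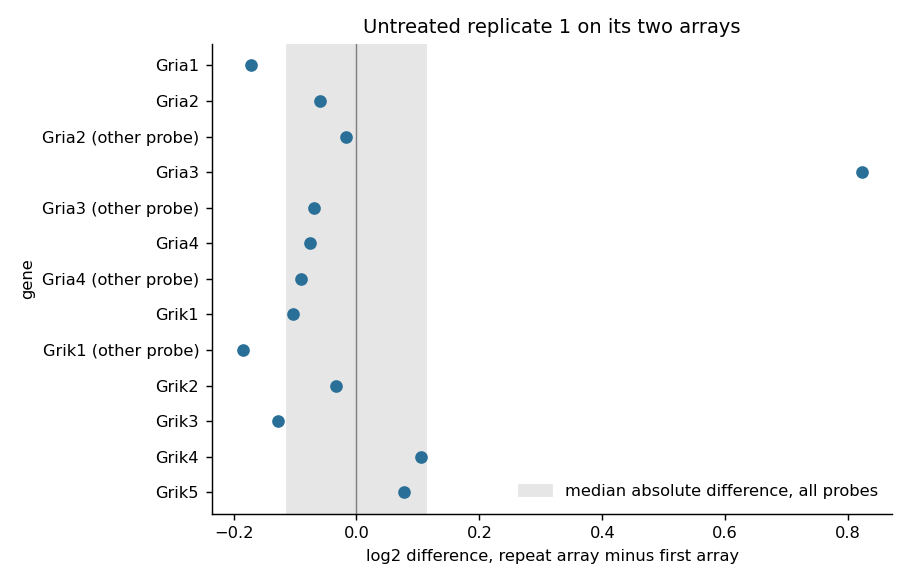
Repeat array minus first array of untreated replicate 1 (x axis, log2) for the 13 probes (y axis); the shaded band is the median absolute difference over all probes, 0.11. The brighter Gria3 probe lies at 0.82, outside the range of the others.

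Genes whose products assemble, carry, cluster or edit these receptors were examined in 7 lists that hold 50 genes in all, of which 45 had a probe and 43 were tested. None of the 43 passed the test in any comparison, against 0% of all probes. At 2, 6 and 12 h, 29, 21 and 24 of the 43 were lower. An unadjusted p below 0.05 (limma) was found for 1, 0 and 2 of them, against 1.22%, 0.767% and 2.40% of all probes. The differences at 12 h ran from -0.46, for a trafficking and scaffold gene, to 0.64. At 24 h, 31 were lower and 12 higher, with a median of -0.047, and 0 of them had an unadjusted p below 0.05. For the mean of the 4 times 29 were lower and 14 higher, with a median of -0.046 against 0.0015 for all probes. Both counts moved with single samples: without 24 h replicate 3, 21 were lower and 22 higher at 24 h, and without untreated replicate 3, 23 were lower and 20 higher both at 24 h and for the mean of the 4 times. Without untreated replicate 1, 34 were lower at 24 h and 33 for the mean of the 4 times. Cnih3, Frrs1l, Gsg1l, Neto2 and Shisa9 had no probe matched here.

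Among the 15 AMPA auxiliary subunit genes, 11 were tested, with 7 lower and 4 higher for the mean of the 4 times. Syndig1, which encodes a transmembrane protein of excitatory synapses, had the highest difference, 0.73 (SE 0.29, 95% interval 0.10 to 1.36, unadjusted p = 0.026, adjusted p = 1.00, limma). Its levels were -1.51, 0.44 and 0.36 in the untreated samples, and 0.08 to 0.66 in the 12 treated samples, so 1 untreated sample lay apart from the other 14, and without it the difference was 0.091. The probe was well above background in those 14 samples and not in untreated replicate 1. Cacng3, a transmembrane AMPA receptor regulatory protein, was at -0.15 (interval -0.51 to 0.20) for the mean of the 4 times, and Prrt1 at -0.16 (interval -0.48 to 0.17) at 24 h. Without untreated replicate 1, Prrt1 was at -0.31 at 24 h.

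Of the other lists, the 14 trafficking and scaffold genes had 11 lower and 3 higher for the mean of the 4 times. Dlg1, a scaffold that binds Gria1, was at -0.11 (interval -0.30 to 0.083) and at -0.043 without untreated replicate 1. Grip2, which binds the tails of Gria2 and Gria3, was at -0.14 (interval -0.40 to 0.11) and at -0.24 without it, and at 24 h Vps35, of the retromer that returns receptors to the surface, was at -0.15 (interval -0.39 to 0.082). The 5 assembly genes of the endoplasmic reticulum tested had 4 lower and 1 higher, with Abhd6 at -0.13 (interval -0.43 to 0.16; 0.060 without untreated replicate 1) and Abhd12 at -0.072; at 24 h Sacm1l was at -0.14 (interval -0.47 to 0.19). The 8 clustering genes had 4 lower and 4 higher, with C1ql2, a synaptic organiser that binds kainate receptors, at 0.22 (interval -0.14 to 0.58) and at 0.0034 without untreated replicate 1, the pentraxin receptor Nptxr at -0.11, and C1ql3 at -0.13 at 24 h.

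In the short lists, Neto1, the kainate auxiliary subunit, was at -0.073 (interval -0.33 to 0.19) for the mean of the 4 times and -0.15 at 24 h. Of the RNA editing enzymes, Adarb1, which edits the pore site of Gria2, was at 0.016 (interval -0.22 to 0.25), Adar at 0.16 (interval -0.20 to 0.52), and Adarb2, above background in 0 samples, did not enter the test. The delta receptor gene Grid1 was at -0.12 (interval -0.52 to 0.28). Without untreated replicate 1, Neto1 was at -0.019, Adar at 0.088 and Grid1 at -0.012 for the mean of the 4 times, and without 24 h replicate 2 Neto1 was at 0.027 at 24 h.

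**Figure D5:**
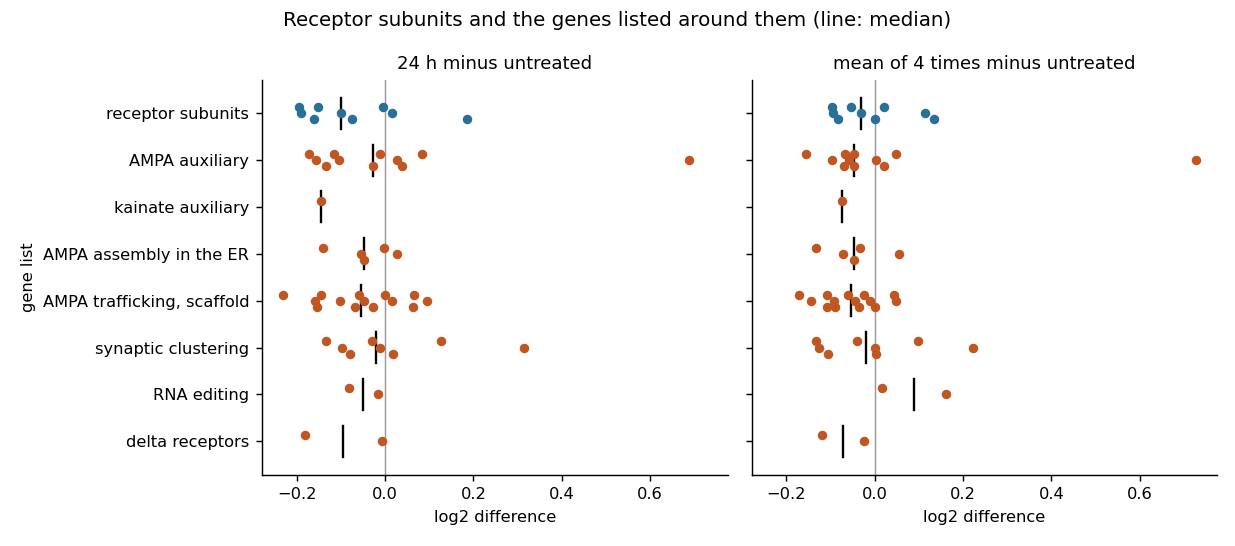
Log2 difference from untreated (x axis) of the 9 subunit genes (blue) and of the 43 tested genes of 7 lists (orange), at 24 h and for the mean of the 4 times; vertical lines are medians. The point at the far right is Syndig1, at 0.69 and 0.73, or at 0.052 and 0.091 without untreated replicate 1.

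The label of neuron cultures was checked against marker genes. All 7 neuronal markers with a probe were well above background in every sample, as were 5 of 6 glutamatergic and 6 of 6 GABAergic markers, and also 8 of 8 astrocyte and 7 of 8 oligodendrocyte lineage markers. So were 4 of 5 hippocampal, 5 of 5 radial glia, 4 of 6 microglial, 2 of 5 endothelial and 4 of 6 fibroblast and pericyte markers. Of the same lists, the hippocampal marker Prox1, the endothelial markers Cldn5, Flt1 and Tek, the pericyte marker Rgs5 and the microglial marker Itgam were well above background in no sample. Summed over 8 genes, the astrocyte level (linear scale, relative to the array percentile) was 111 to 138 in the untreated samples and 138 to 176 in the treated ones, and its part in the subunit values was not tested. The lowest treated sample lay just above the highest untreated one, and no share over other sums of genes was computed to set beside this. A linear sum leans on its brightest genes, here Aldoc (mean level 6.37) and Slc1a3 (5.32). Aldoc by itself overlapped, with 6.35 in untreated replicate 2 and 6.32 in 24 h replicate 1. Its lowest level, 5.49, was that of untreated replicate 1. Summed glutamatergic levels were 6.44 to 6.70 in the untreated samples and 5.95 to 6.85 in the treated ones. In such cultures, fewer cells of a type and less RNA per cell cannot be told apart.

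The genes whose deviations over the 15 samples were most like those of a member were found by the root mean square difference in log2 deviation among 10083 genes, as a description. For Gria1 these were Klhdc10 (0.075), Picalm (0.076) and Pde10a (0.097), where the median over all genes was 0.22. For Gria2 they were Myef2 (0.099), Serp1 (0.11) and Fam151b (0.11), against a median of 0.29. For Grik5 they were Atad3a (0.048), Lrrc41 (0.053) and Gpd1 (0.055), against 0.19. The SD of the members themselves was 0.15, 0.24 and 0.12, so genes that vary little over these samples can be alike in this measure.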

How the data were processed

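Per the file headers, each array's file gives an intensity per spot, made with Feature Extraction 11.5.1.1 of Agilent (protocol GE1_1105_Oct12, design build rn4), background-subtracted and not scaled between arrays. The series table deposited by the authors holds a standard score per array; for 24 h, replicate 1's column followed the scanner file of replicate 3 and the reverse, and the scanner files were used as labelled. Control and outlier-flagged spots were left out, spots of a probe were averaged, and log2 signal minus the array's 75th percentile was used. Accessions were matched to RefSeq genes without versions (18758 of 30367 probes). Probes were kept if all arrays of 1 or more groups had them well above background (20349). One limma 3.58.1 fit (R 4.3.3; lmFit, eBayes, two-sided, 10 residual and 3.60 prior degrees of freedom) covered 5 groups and 15 samples, with Benjamini-Hochberg adjustment within a comparison; simulated data with known changes tested it. Named list genes had the smallest unadjusted p of their list for the mean of the 4 times or 24 h; lists of 2 or 3 genes are given whole, except for 1 result not reported here. The number of arrays limits the precision. Members and lists were chosen with earlier results of these data known. Same-numbered samples had a median correlation of deviations of 0.13 (others -0.083), and not every pair was over 0.1. The lowest of these pairs held 24 h replicate 1 or 3. The replicate number was no block in the main comparison, because the labels do not say that it marks a shared batch. Alternatives covered background, scaling, filter, slide, pairing, weights and left-out samples. Probe and protein sequences were not used here.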

Additional observations from a re-analysis of the deposited data

Results flagged for a closer look

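The mean of Gria2 was 0.34 higher at 12 h than at 24 h on the log2 scale. It was singled out because all 3 samples of 12 h lay above the untreated mean and all 3 of 24 h below it. This difference between the times was not tested. It was found among 13 probes and 6 pairs of times. The other probe of Gria2 had its 12 h and 24 h samples on both sides of the untreated mean.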

How the results depend on the processing

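No subunit probe passed the threshold in any of 29 alternative settings (smallest adjusted p 0.559, limma). Counts of all probes stayed at 0 except within slide 1 at 12 h, where the treated group was replicate 1 alone. The cause was not tested. The signs of the differences, none of them called, were not stable. No sign turned with the replicate number as a block (replicate block: 0 probes called) or with 1 probe a gene. Nor did any turn without a filter on dim probes or with the stricter filter. That was fixed in advance, as these settings leave the difference of a probe with values in all samples unchanged. They therefore say nothing about how stable the signs are. Same-numbered samples correlated at -0.42 to 0.41 (median 0.13, 19 of 30 pairs over 0.1) and others at a median of -0.083 (11 of 60 over 0.1). All 3 pairs of untreated with 2 h were over 0.1, not all of those with 6, 12 or 24 h, and 7 of 15 samples correlated best with their own number. The lowest same-numbered pairs held 24 h replicate 1 or 3, whose deposited columns followed each other's scanner file. For example, 12 h replicate 1 correlated at -0.28 with 24 h replicate 1 and at 0.41 with 24 h replicate 3. Likewise, 12 h replicate 3 correlated at -0.16 with 24 h replicate 3 and at 0.27 with 24 h replicate 1. The higher pairs here share a slide, so label and slide cannot be told apart. The planned random block for the repeat array had no estimate, and the slide covariate (with untreated replicate 1 midway between the slides) was chosen after seeing the data. All subunit probes were well above background, and the list genes with a probe that were not tested were those too close to it. The choice of background correction still mattered for the subunit probes. Normexp turned the signs of 18 of their 78 differences and moved 5 by more than the residual SD. Grik3, than which 13.6% of probes had a lower mean, turned at 2, 6 and 24 h and for the mean of the 4 times. Each slide held samples of all 5 groups, but not evenly. On slide 1, 12 h was replicate 1 alone and 24 h replicate 3 alone. On slide 2, 2 h and 6 h were each replicate 3 alone. The within-slide differences at those times rest on a single treated sample. Apart from 24 h and the repeat array, replicate 1 lay on slide 1 and replicate 3 on slide 2, so replicate number and slide are largely confounded. Normexp moved the median of all probes at 12 h to 0.11. The values that turned follow as log2 differences from untreated, where all times means the mean of the 4 times and other probe the one of a gene with the lower mean; the cause was not tested.

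Under background correction by normexp on the median and background signals of all spots, the signs of 18 turned, at 2 h Grik3 0.025, Grik1 0.090, Grik1 other probe 0.064, Gria2 other probe 0.00081, and at 6 h Grik3 0.12, Grik2 0.0030, Gria2 other probe 0.038, and at 12 h Grik1 0.16, Grik1 other probe 0.090, and at 24 h Gria3 0.046, Grik3 0.090, Grik5 -0.019, and over all times Gria4 other probe 0.0031, Grik3 0.13, Grik5 -0.018, Grik1 0.11, Gria2 other probe 0.033, and for 24 h minus 2 h Gria3 other probe 0.0011. Under quantile normalization, the signs of 6 turned, at 2 h Grik4 -0.0017, Grik1 0.0073, and at 12 h Grik3 -0.0029, and at 24 h Grik5 -0.015, and over all times Gria4 -0.00061, Grik5 -0.0060. Under the percentile taken over probes detected on all arrays, the signs of 2 turned, at 2 h Grik4 -0.0084, and over all times Gria4 -0.0081. Under the deposited scores (multiplied by the mean SD of log2 signal to reach a log2 scale), the signs of 11 turned, at 2 h Grik4 -0.096, Grik5 0.049, and at 6 h Grik5 0.028, Grik1 -0.014, and at 12 h Gria1 -0.043, Gria3 other probe -0.035, Grik3 -0.056, Gria2 other probe -0.018, and over all times Gria4 -0.013, Grik1 other probe -0.046, and for 24 h minus 2 h Grik5 -0.0070. Under slide as a covariate, the signs of 3 turned, at 2 h Grik5 0.0052, and at 12 h Gria1 -0.015, and at 24 h Gria3 0.020. Within slide 1, the signs of 19 turned, at 2 h Gria4 -0.0056, Grik1 other probe 0.0095, and at 6 h Gria4 -0.036, Grik5 0.032, and at 12 h Grik4 -0.12, Gria4 -0.16, Gria4 other probe -0.014, Gria3 other probe -0.22, Gria2 -0.025, and at 24 h Gria3 0.39, Grik3 0.13, Gria2 other probe 0.062, and over all times Gria4 -0.091, Grik1 other probe -0.032, Gria2 other probe 0.035, and for 24 h minus 2 h Gria4 other probe 0.14, Grik1 0.017, Gria2 other probe 0.074, Gria2 -0.045. Within slide 2, the signs of 22 turned, at 2 h Gria4 -0.12, Gria3 -0.22, Gria1 0.25, Gria4 other probe 0.20, Gria3 other probe 0.074, Grik3 0.27, Grik2 0.058, Grik5 0.16, Grik1 0.095, and at 6 h Grik5 0.021, and at 12 h Grik1 other probe 0.22, Gria2 other probe -0.039, and over all times Gria4 -0.014, Gria3 -0.019, Gria1 0.051, Gria4 other probe 0.11, Grik3 0.015, Grik2 0.034, Grik1 0.0072, and for 24 h minus 2 h Gria3 0.0094, Grik3 -0.35, Grik5 -0.092. Under array weights, the signs of 15 turned, at 2 h Grik4 -0.015, and at 12 h Grik4 -0.064, Gria3 -0.050, Gria1 -0.018, Gria3 other probe -0.19, Grik3 -0.067, Grik5 -0.013, and at 24 h Gria3 0.075, Grik5 -0.090, and over all times Grik5 -0.061, and for 24 h minus 2 h Gria1 0.057, Grik2 0.051, Grik5 -0.021, Grik1 other probe 0.010, Gria2 other probe 0.079. Under only the repeat array of untreated replicate 1, the signs of 7 turned, at 2 h Grik4 -0.017, Gria3 -0.0060, Grik1 0.014, Grik1 other probe 0.0094, and at 12 h Grik1 other probe 0.013, and over all times Gria3 -0.0034, Gria4 other probe 0.0042. Under only its first array, the signs of 6 turned, at 2 h Grik5 0.0095, and at 12 h Gria1 -0.016, Grik3 -0.0010, and at 24 h Gria3 0.13, and over all times Gria4 -0.012, Grik1 other probe -0.0076.

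Leaving out 1 sample at a time turned the sign of 42 differences at least once. At 2 h the ranges were Gria1 -0.25 to 0.031, Gria2 other probe -0.28 to 0.016, Gria4 -0.090 to 0.13, Gria4 other probe -0.15 to 0.047, Grik1 -0.034 to 0.051, Grik1 other probe -0.18 to 0.067, Grik2 -0.10 to 0.012, Grik4 -0.18 to 0.18, Grik5 -0.093 to 0.054. At 6 h the ranges were Gria2 -0.13 to 0.083, Gria4 -0.060 to 0.14, Grik2 -0.057 to 0.020, Grik4 -0.0040 to 0.36, Grik5 -0.11 to 0.027. At 12 h the ranges were Gria1 -0.097 to 0.11, Gria2 other probe -0.032 to 0.094, Gria3 other probe -0.17 to 0.15, Gria4 -0.050 to 0.14, Grik1 other probe -0.10 to 0.14, Grik3 -0.11 to 0.12, Grik4 -0.10 to 0.31. At 24 h the ranges were Gria2 other probe -0.37 to 0.016, Gria3 -0.13 to 0.24, Gria4 -0.30 to 0.061, Grik3 -0.25 to 0.17, Grik5 -0.072 to 0.077. Over all times the ranges were Gria1 -0.20 to 0.0046, Gria2 -0.19 to 0.014, Gria4 -0.12 to 0.076, Gria4 other probe -0.14 to 0.063, Grik1 other probe -0.053 to 0.087, Grik2 -0.065 to 0.012, Grik4 -0.065 to 0.30, Grik5 -0.069 to 0.069. For 24 h minus 2 h the ranges were Gria1 -0.19 to 0.085, Gria2 -0.13 to 0.29, Gria2 other probe -0.26 to 0.12, Gria3 -0.26 to 0.11, Gria4 -0.33 to 0.034, Grik2 -0.11 to 0.0035, Grik3 -0.047 to 0.36, Grik5 -0.061 to 0.088. Among the named list genes, leaving out samples (chosen after seeing the data) turned the sign of Abhd6 (-0.26 to 0.060) and Adarb1 (-0.011 to 0.059) over all times and of Neto1 (-0.24 to 0.027) at 24 h.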
